A study of Drosophila melanogaster with 2 samples.

Results

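The regions described here were binding peaks of the chromatin protein mod(mdg4) whose summits lay in intergenic DNA between neighbouring protein-coding genes on opposite strands. A summit, the position of strongest signal within a peak, was kept when it lay more than 500 bp from every protein-coding start site and outside the span of every annotated gene, and when the nearest protein-coding gene to its left and the nearest to its right were on opposite strands. Of 6273 peaks on the chromosome arms in the optimal thresholded peak list (6294 peaks with the 21 mitochondrial ones), 503 (8.02%) met the rule. In 243 of them (3.87% of the arm peaks) the neighbours pointed towards each other, so that the gap was bounded by both genes' 3′ ends (convergent). In the other 260 (4.14%) the neighbours pointed away from each other, so that the gap was bounded by both genes' 5′ ends (divergent). A further 500 summits passed the distance rules between neighbours on the same strand and served as the comparison.

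The assay was chromatin immunoprecipitation followed by sequencing on whole Drosophila melanogaster larvae at the wandering stage of the third instar, with both sexes pooled. The larvae came from a transgenic line, strain mod(mdg4)-GFP, which carries mod(mdg4) with GFP at its C-terminal end, and the precipitation used an antibody to GFP. The labels give 2 biological replicates of 1 group, with the numbers 3 and 4, and no other stage, genotype or treatment, so every comparison below is between regions of the genome in the same libraries. Nothing in the labels says whether the replicates were separate cultures. The signal of a peak sums over all tissues of the larva, and a site bound in few cells cannot be told apart from one bound weakly in many. The labels do not say which isoforms carry the tag.

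The mod(mdg4) gene encodes a large family of nuclear proteins that share a BTB domain and differ in their C-terminal ends. Some isoforms join insulator complexes, protein assemblies on DNA that block an enhancer from acting on a promoter when they lie between them, and 1 isoform is recruited to the gypsy retrotransposon insulator by the zinc finger protein su(Hw). CTCF, the GAGA factor and BEAF-32 are other Drosophila proteins associated with insulators and domain borders. A convergent gap holds the transcription termination regions of both neighbours and no promoter of either, whereas a divergent gap is flanked by promoters that can share regulatory DNA.

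Below, 8 member windows are shown, each 201 bp long, centred on the summit and read on the plus strand of the RefSeq genome of the dm6 assembly. They were picked to show, for each kind of gap, a strong member with each of 3 insulator motifs and the strongest member of all, which held none of the 3. The motif windows are the strongest on arms X, 2L, 3L and 3R, and stronger members with the same letters elsewhere are not printed. Capitals mark the letters of the named motif: the su(Hw) site in the windows Prx2|RpS15Aa and slf|CG15629, the CTCF core AGGNGGCGC in Cyp12e1|hth and ImpL2|Sqor, the GAGA letters GAGAGAG in hry|SrpRbeta and Ir68a|scyl, and the shorter su(Hw) core TGCATAC in Gprk2|Loxl1, each on either strand. The window Cyt-c1L|eEF1gamma held none of these and has no capitals. In the order of the lines, the windows are chrX:13334899-13335099, chr3R:10437093-10437293, chr3L:8702624-8702824, chr3R:31458249-31458449, chr2L:4812351-4812551, chr3L:4239523-4239723, chr3L:11246140-11246340 and chr3R:29214331-29214531.
convergent Prx2|RpS15Aa: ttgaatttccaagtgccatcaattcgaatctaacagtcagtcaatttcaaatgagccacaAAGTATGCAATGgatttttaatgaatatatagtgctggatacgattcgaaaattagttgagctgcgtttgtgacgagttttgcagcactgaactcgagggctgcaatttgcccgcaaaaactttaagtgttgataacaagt
convergent Cyp12e1|hth: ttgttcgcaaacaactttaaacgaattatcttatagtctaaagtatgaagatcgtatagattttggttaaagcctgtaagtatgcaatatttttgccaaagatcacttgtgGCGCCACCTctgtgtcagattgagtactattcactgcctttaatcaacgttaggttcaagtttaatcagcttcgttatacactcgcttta
convergent hry|SrpRbeta: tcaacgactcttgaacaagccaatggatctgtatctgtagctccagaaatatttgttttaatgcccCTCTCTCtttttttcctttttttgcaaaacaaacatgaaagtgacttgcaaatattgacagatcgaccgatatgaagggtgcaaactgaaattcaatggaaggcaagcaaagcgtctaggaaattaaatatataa
convergent Gprk2|Loxl1: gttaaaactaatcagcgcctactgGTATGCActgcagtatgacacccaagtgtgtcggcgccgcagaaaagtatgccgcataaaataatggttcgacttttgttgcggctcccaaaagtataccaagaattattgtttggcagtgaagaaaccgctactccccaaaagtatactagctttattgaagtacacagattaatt
divergent slf|CG15629: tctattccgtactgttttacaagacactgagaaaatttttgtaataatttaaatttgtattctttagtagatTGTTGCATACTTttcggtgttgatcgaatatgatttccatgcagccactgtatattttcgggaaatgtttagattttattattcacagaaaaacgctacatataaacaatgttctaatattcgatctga
divergent ImpL2|Sqor: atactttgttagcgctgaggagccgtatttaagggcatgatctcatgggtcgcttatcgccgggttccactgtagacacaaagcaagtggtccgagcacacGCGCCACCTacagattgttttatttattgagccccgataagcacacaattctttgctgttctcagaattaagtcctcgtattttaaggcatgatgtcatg
divergent Ir68a|scyl: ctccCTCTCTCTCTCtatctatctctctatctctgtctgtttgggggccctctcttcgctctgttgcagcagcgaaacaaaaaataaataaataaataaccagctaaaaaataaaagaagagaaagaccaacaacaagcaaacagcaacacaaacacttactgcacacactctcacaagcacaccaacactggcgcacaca
divergent Cyt-c1L|eEF1gamma: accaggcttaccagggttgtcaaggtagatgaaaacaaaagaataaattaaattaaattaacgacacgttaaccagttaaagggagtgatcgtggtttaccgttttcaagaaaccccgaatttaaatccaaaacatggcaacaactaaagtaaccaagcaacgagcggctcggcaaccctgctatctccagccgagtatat

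The strongest convergent member lay between Gprk2 (FBgn0261988), a kinase of G protein-coupled receptors, and Loxl1 (FBgn0039848), a lysyl oxidase-like gene. Its summit was 476 bp beyond the 3′ end of Gprk2 and 31 bp from that of Loxl1, with a pooled signal of 1830.4, and its signal was 1138.5 in replicate 3 and 732.4 in replicate 4, places 24 and 31 of the respective lists. Signal here is the authors' enrichment value for a peak, compared only within its own list. The convergent member of rank 3, between the peroxiredoxin gene Prx2 and the ribosomal protein gene RpS15Aa, had a pooled signal of 1138.4, with 613.8 and 529.8 in replicates 3 and 4, and its su(Hw) site began at -40 bp from the summit (negative to the left). The convergent member with the CTCF letters lay 489 bp from Cyp12e1 and 70368 bp from homothorax (hth), a homeodomain gene, with a pooled signal of 368.5. It was the only one of 243 to hold them. Its window also held the su(Hw) site and the su(Hw) core, which are not in capitals above.

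The strongest divergent member lay between Cyt-c1L, a cytochrome c1-like gene, and eEF1gamma, a translation elongation factor subunit, 10298 bp and 5741 bp from them. Its pooled signal was 1493.3, with 884.5 and 612.5 in replicates 3 and 4, places 38 and 39. It lay 131 bp from the start of lncRNA:CR31044, a noncoding gene. The divergent CTCF window lay beside ImpL2, which encodes a secreted insulin-binding protein, 550 bp from the Sqor side and 3476 bp from the ImpL2 side, with 628.1 pooled and 359.0 and 280.8 in the replicates. The GAGA window beside scyl, an inhibitor of TOR signalling, held 3 matches and had 504.8 pooled, with 259.4 and 237.4.

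Convergent and divergent gaps were compared by the number of summits per Mb of eligible sequence, meaning every position that a summit could have held under the same distance and gene-span rules. Convergent gaps had 33.7 summits per Mb over 7.22 Mb, divergent gaps 32.5 over 7.99 Mb and same-strand gaps 30.7 over 16.3 Mb. Taking the 6294 strongest peaks of each replicate in turn, convergent gaps held 225 summits in replicate 3 and 233 in replicate 4 (31.7 ± 0.784 per Mb, SD, n = 2), and divergent gaps 258 and 242 (31.3 ± 1.42 per Mb, SD, n = 2). The replicates did not rank the 2 kinds the same way: divergent gaps were denser in replicate 3 (32.3 against 31.2 per Mb) and convergent gaps in replicate 4 (32.3 against 30.3). Over all eligible sequence no difference in density passed the threshold in an exact conditional test with Benjamini-Hochberg adjustment over 3 comparisons. The ratio of convergent to divergent density was 1.04 (95% interval 0.865 to 1.24, adjusted p = 0.721 by the exact test), that of convergent to same-strand 1.1 (0.936 to 1.28, exact adjusted p = 0.695) and that of divergent to same-strand 1.06 (0.908 to 1.23, exact adjusted p = 0.695). Each interval covers the counting of summits only.

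The totals were made up at unlike places in the gaps. The rule keeps a divergent summit more than 500 bp from either neighbour, because both neighbours start there, while a convergent summit may lie right up to a 3′ end. Of the convergent summits, 110 lay within 500 bp of a neighbour, and 84 of those (34.6% of all convergent members) within 250 bp, in 6.84% of the eligible convergent sequence, a density of 170 per Mb. Same-strand gaps had 187 per Mb within 250 bp of a neighbour, so dense positions next to a 3′ end were not confined to convergent gaps. Beyond 500 bp from both neighbours, convergent gaps had 133 summits at 20.7 per Mb against 260 at 32.5 in divergent gaps and 346 at 22.7 in same-strand gaps. On this matched sequence, a comparison chosen after seeing the data, the ratio of convergent to divergent density was 0.636 (95% interval 0.512 to 0.787, exact adjusted p = 2.82e-05) and that of divergent to same-strand 1.44 (1.22 to 1.69, exact adjusted p = 2.82e-05). The convergent to same-strand difference did not pass the threshold there (ratio 0.913, interval 0.742 to 1.12, exact adjusted p = 0.395). In gaps of at least 10 kb the convergent to divergent ratio was 0.727 (0.563 to 0.934, exact adjusted p = 0.0178). The divergent to same-strand ratio there was 1.49 (1.21 to 1.84, exact adjusted p = 0.000468). These comparisons count each summit once although summits of 1 gap share their surroundings, and were not run with 1 summit per gap. With 1 summit per gap over all eligible sequence the ratios were 1.2 (0.966 to 1.5) and 0.875 (0.722 to 1.06). Both had an exact adjusted p of 0.248.

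Within each kind, density fell with distance from the neighbours. In convergent gaps it went from 170 per Mb within 250 bp to 88.6 at 251 to 500 bp, 42.2 at 501 to 1000 bp, 34.5 at 1001 to 2000 bp and 11.1 beyond 10000 bp. In divergent gaps it went from 82 per Mb at 501 to 1000 bp to 60.1 at 1001 to 2000 bp, 31.5 at 2001 to 5000 bp and 11.3 beyond 10000 bp. Beyond 10000 bp the same-strand gaps were at 10.9 per Mb, so the 3 kinds had close values far from genes. At 501 to 1000 bp the same-strand gaps were at 69.4 per Mb, between the convergent and the divergent value. Within 250 bp they were at 187 per Mb, close to the convergent value, and no divergent position was eligible. Convergent summits lay within 1000 bp of a neighbour's 3′ end in 129 of 243 cases (53.1%, exact 95% interval 46.6 to 59.5), where 17.2% of the eligible sequence lay, a ratio of 3.1 (exact binomial test, adjusted p = 9.05e-37). Divergent summits lay within 1500 bp of a neighbour's start side in 104 of 260 cases (40%, interval 34 to 46.2), against 17.2% of the eligible sequence, a ratio of 2.32 (exact binomial test, adjusted p = 5.01e-18). From the replicate lists the convergent ratio was 2.98 in replicate 3 and 3.38 in replicate 4, and the divergent ratio 2.16 and 2.47. These tests count each summit once although summits of 1 gap share their surroundings. With only the strongest summit of each gap the ratios were 3.81 and 3.03. The eligible share stayed at 17.2% there, so short gaps weigh more and gap length is not corrected for. In gaps of at least 10 kb, chosen after seeing the data, 18 of 106 convergent summits (17%) lay that near, against 7.08% of eligible sequence, a ratio of 2.4. Divergent summits there did so in 36 of 161 cases (22.4%), against 7.68%, a ratio of 2.91.

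**Figure D1:**
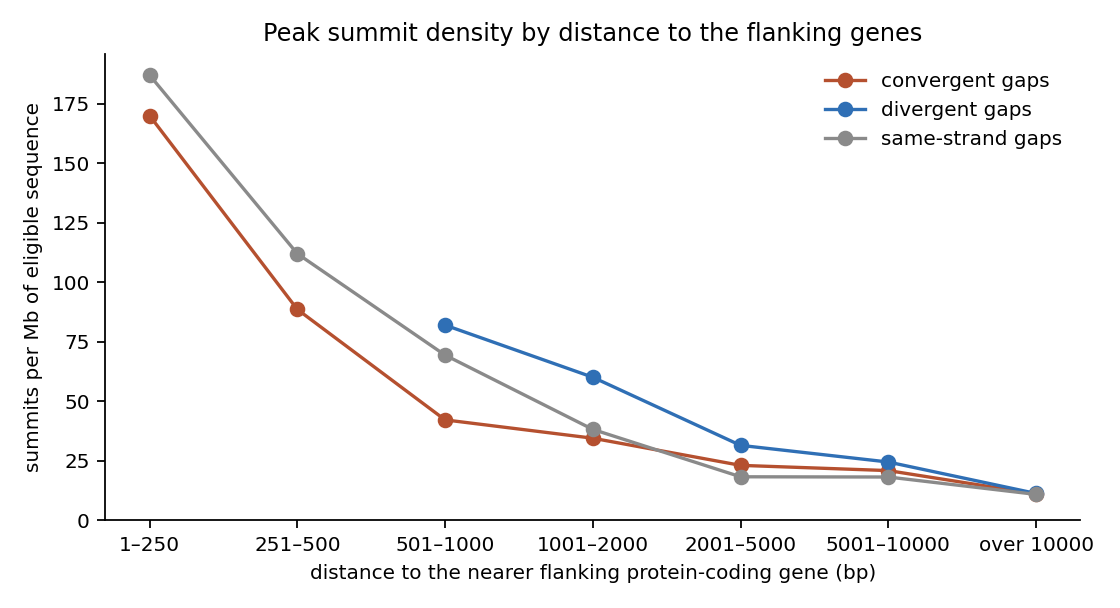
Summits per Mb of eligible sequence (y axis) against the distance to the nearer flanking protein-coding gene in bp (x axis, classes), for convergent, divergent and same-strand gaps in the pooled peak list. Convergent density is 170 per Mb within 250 bp of a 3′ end and 42.2 at 501 to 1000 bp, where divergent density is 82; no divergent position within 500 bp is eligible.

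The distance rule cut through a populated stretch mainly on the divergent side. From 501 to 600 bp from a start site there were 22 divergent members and 1 convergent member, with a median signal of 231, and from 401 to 500 bp, just outside the rule, 17 divergent summits and 0 convergent ones, with a median of 162. Requiring more than 1000 bp from every start left 236 convergent, 196 divergent and 393 same-strand summits. Under that rule the convergent to same-strand density ratio was 1.29 (exact adjusted p = 0.0081).

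Few gaps carried a summit. Of 1952 convergent gaps with eligible sequence 173 (8.86%) had at least 1, as did 159 of 1021 divergent gaps (15.6%) and 370 of 2670 same-strand gaps (13.9%). These gaps differed in length, with medians of 232 bp convergent, 4129 bp divergent and 2039 bp same-strand. Among gaps under 5 kb the shares with a summit were 6.23%, 8.41% and 9.37% in that order. Among gaps of 20 to 50 kb they were 24.4%, 27.6% and 27%. The gap around a convergent member had a median length of 6.91 kb and that around a divergent member 14.7 kb, and 59 convergent members (24.3%) but 0 divergent ones lay in gaps under 1000 bp. Summits per Mb were highest in the shortest gaps of each kind and lowest in the longest. Convergent gaps under 5 kb had 148 per Mb, those of 20 to 50 kb 27.3 and those of 50 kb and over 4.81. The same classes of divergent gaps had 73.4, 25.2 and 12.5.

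**Figure D2:**
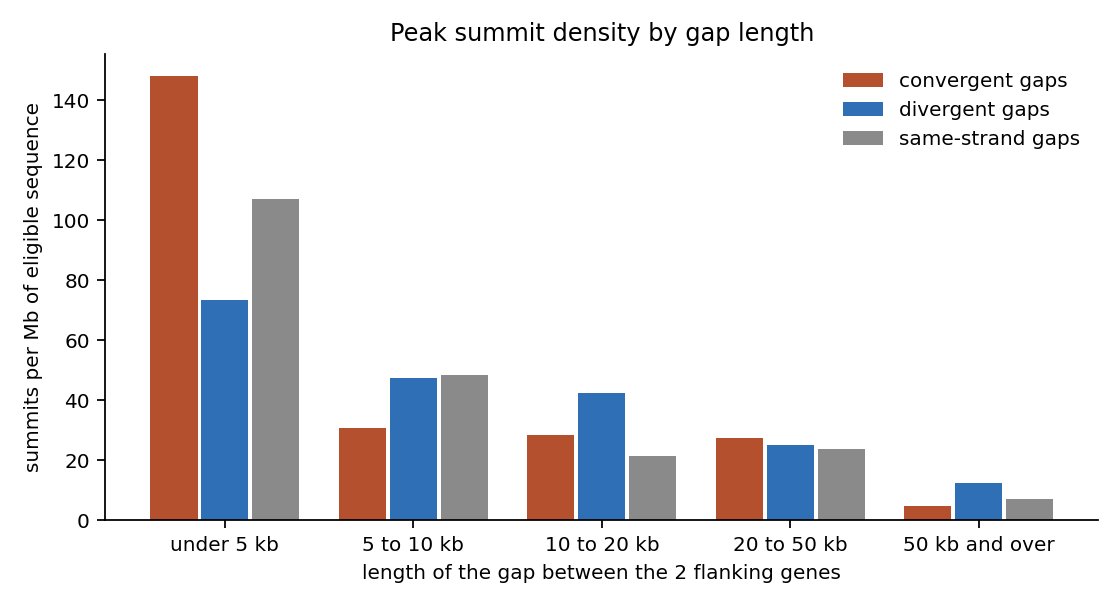
Summits per Mb of eligible sequence (y axis) in gaps of 5 length classes (x axis) for the 3 kinds of gap, pooled peak list. Convergent gaps lead below 5 kb (148 per Mb) and divergent gaps from 10 to 20 kb (42.4 per Mb against 28.6 in convergent and 21.5 in same-strand gaps).

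The signal of the members was close to that of the arm peaks as a whole. The pooled signal of convergent members ran from 113.5 through a median of 188.8 to 1830.4, and that of divergent members from 113.2 through 187.2 to 1493.3, beside a median of 185.6 over all arm peaks and 199.1 at peaks within 500 bp of a start site. Above the arm median were 123 of 243 convergent and 132 of 260 divergent members (odds ratio 0.994, Fisher's exact test, adjusted p = 1). In replicate 3 the medians were 115 and 118 and in replicate 4 86.5 and 83.2 for convergent and divergent members. A peak was called strong in both replicates when it overlapped one of the 6294 strongest peaks of each. That held for 173 convergent (71.2%) and 179 divergent members (68.8%), next to 70.8% of all arm peaks, with an odds ratio of 1.12 between the 2 kinds (Fisher's exact test, adjusted p = 0.835). Neither replicate was strong at 7 of 243 convergent and 5 of 260 divergent members, next to 16 of 500 same-strand summits and 144 of 6273 arm peaks. Each replicate signal was then divided by the arm median of its replicate, 116 in replicate 3 and 84.3 in replicate 4. The scaled signals were within 2-fold of each other at 90% of convergent and 87.6% of divergent members. Their log2 ratio SD was 0.59 and 0.66. The rank correlation of the 2 replicate signals was 0.67 over 241 convergent and 0.588 over 259 divergent members, which shared the libraries and their depth. Over all arm peaks these values were 89.9%, 0.61 and 0.65, and over same-strand summits 90.8%, 0.57 and 0.739.

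**Figure D3:**
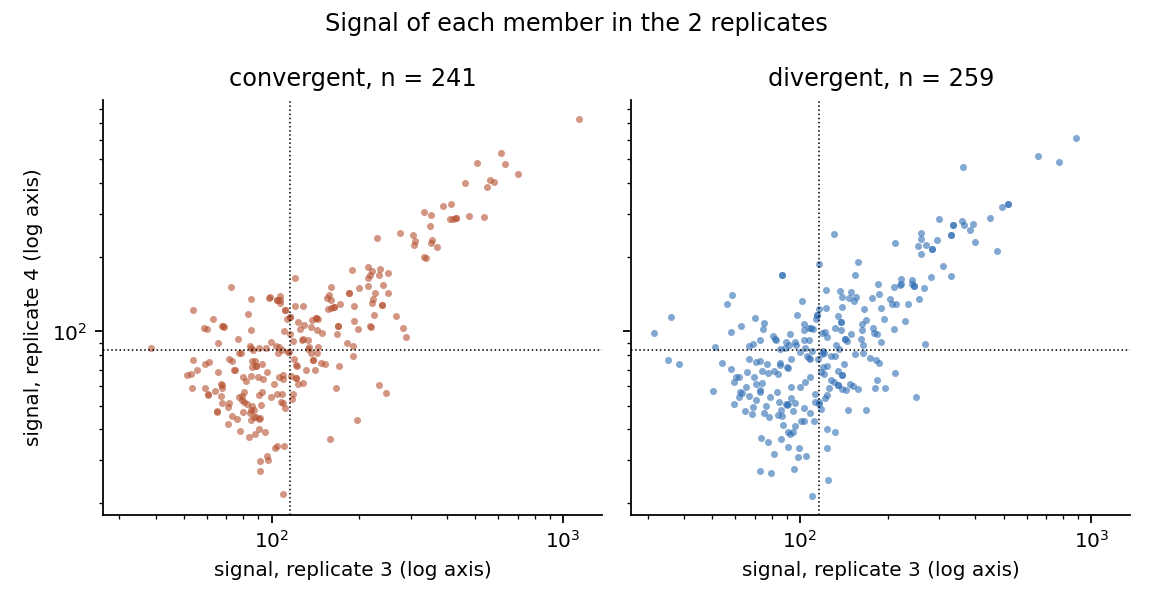
Signal of each member in replicate 3 (x axis) and replicate 4 (y axis), both log axes, for the 241 convergent and 259 divergent members with a value in both, 1 point per member. Dotted lines mark the arm medians of 116 and 84.3. Points far above both medians follow the diagonal and the scatter is widest around and below the medians, in both panels.

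At the top of the lists, the second convergent member lay between Su(z)2, a Polycomb group gene, and CG13323, at 1148.7. It was 27436 bp from Su(z)2 and 9348 bp from CG13323. After the member beside RpS15Aa came that between PAN3, a subunit of a poly(A) nuclease, and Cht7, a chitinase, at 1117.7. The member between PAN3 and Cht7 had 634.2 and 477.6 in replicates 3 and 4. It was followed by the gap of CG6928 and rols, a gene of myoblast fusion, at 992.0, and that of CG31637 and eya, the eye development gene eyes absent, at 960.8. The rols summit lay 96 bp and 78 bp from its neighbours and the eya summit 130 bp and 321 bp, so both stood in short gaps between 3′ ends. Among divergent members the next strongest was beside tbrd-2, a testis bromodomain gene, at 1260.6, then the one between CG9733 and CG34299 at 1170.7, and the one beside retn, a transcription factor gene, at 865.7. The summits beside tbrd-2 and retn held the su(Hw) site. Of the 100 strongest arm peaks 7 were convergent and 3 divergent members.

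Most gaps with a summit held only 1, at 137 of 173 convergent and 108 of 159 divergent gaps, and some held groups. Another arm peak lay within 1000 bp of 56 convergent (23%) and 69 divergent members (26.5%), next to 21.2% of same-strand summits. Overlap with another arm peak was found for 27 of 243 convergent and 44 of 260 divergent members, and for 695 of all 6273 arm peaks. Neighbouring members can therefore share replicate peaks. Gaps with 4 or more summits numbered 8 convergent and 10 divergent and held 44 and 56 members. The gap between Ids and sty, the sprouty antagonist of receptor tyrosine kinase signalling, had 9 convergent summits over 21.1 kb, with signals from 119.2 to 368.1. Of these, 4 were strong in both replicates. The gap of hry, the pair-rule repressor hairy, and SrpRbeta had 7, from 150.0 to 303.0, all strong in both replicates. On the divergent side the gap of NijA, a ninjurin gene, and CG43245 had 11 over 75 kb, from 116.5 to 307.4, and that of CG33795 and CG33687 had 10. In the NijA gap and in the CG33795 gap alike, 7 summits were strong in both replicates. The gap beside the cell death gene hid had 5, with a median of 249.5. Members in these crowded gaps had a median signal of 176 and held the su(Hw) site in 1 of 100, while members alone in their gap had a median of 209 and held it in 24 of 245.

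A set of 13 motifs was searched as exact letters on both strands of the 201 bp windows. The su(Hw) site is given by name, and the letters of its core, of the CTCF core and of GAGA are given above. DRE was searched as TATCGATA, BEAF-32 as CGATA, Motif 1 as GGTCACACT and Pho as GCCATNTT. The E-box was searched as CACGTG and the AP-1 motif as TGANTCA. For Zelda the letters were CAGGTAG, for the promoter box of TBP they were TATAAA, called TATA below, and the last motif was a repeat of GTGTGTGT. They overlap in part: 34 of 38 windows with the su(Hw) site also held its core, and every DRE holds the BEAF-32 letters. A match is a stretch of letters and not a measured site.

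The su(Hw) letters were more frequent at the opposite-strand summits than beside them, with no called difference from same-strand summits. The su(Hw) site stood in 38 of 503 member windows (7.55%), with 15 convergent (6.17%) and 23 divergent (8.85%), where 3.06% of all arm peak windows hold it. It stood in 34 of 500 same-strand windows (6.8%), with an odds ratio of 1.12 between opposite-strand and same-strand windows (Fisher's exact test, adjusted p = 0.844). In the windows 1000 bp to the right of the same summits it stood in 4 (0.795%), a ratio of 9.5 (exact McNemar test, adjusted p = 2.53e-07 over 13 motifs). The su(Hw) core stood in 63 windows (12.5%) against 17 beside them (3.38%), a ratio of 3.71 (exact McNemar test, adjusted p = 4.04e-07), and in 6.95% of all arm peak windows. The ratios rest on few side windows. From the replicate lists the site stood in 38 against 1 in replicate 3 (ratio 38) and 36 against 3 in replicate 4 (ratio 12), and the core gave ratios of 5.64 and 3.05. Against windows 1000 bp to the left the ratios were 7.6 for the site and 15.8 for the core, and against windows 2000 bp to the right 19 and 7.88. Each of these passed the exact test. TATA stood in 169 (33.6%) against 124 (24.7%), a ratio of 1.36 (exact McNemar test, adjusted p = 0.0108), and in 34.6% of all arm peak windows. The TATA difference missed the threshold in the list of replicate 4 alone (ratio 1.24, exact adjusted p = 0.17) and against side windows outside genes (ratio 1.3, exact adjusted p = 0.137). Windows at the summits were lower in GC (medians of 35.3% convergent and 36.8% divergent) than those beside them (44.3% and 41.3%), and 46.5% of convergent and 25.8% of divergent side windows were centred in a gene. Whether base composition plays a part in the TATA result was not tested.

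The other 10 motifs were not called against the side windows. GAGA stood in 20 member windows (3.98%) against 11 (2.19%) beside them (exact adjusted p = 0.442) and in 7.38% of all arm peak windows. In the list of replicate 4 alone GAGA was called, at 19 against 4 (ratio 4.75, exact adjusted p = 0.0113), and in that of replicate 3 alone it stood at 14 against 13. The CTCF core stood in 11 (2.19%) against 7 (1.39%) (exact adjusted p = 0.625) and in 1.55% of all arm peak windows. No motif was called between convergent and divergent windows by Fisher's exact test with adjustment over 13 motifs, and 1 had an unadjusted p under 0.05. That was the CTCF core, in 1 of 243 convergent (0.412%) and 10 of 260 divergent windows (3.85%), with an odds ratio of 0.103 (exact p = 0.0114, adjusted p = 0.148). The su(Hw) site gave an odds ratio of 0.678 between them (exact adjusted p = 0.762). Between opposite-strand and same-strand windows 0 motifs were called and 1 had an unadjusted p under 0.05, DRE in 9 against 1 (exact p = 0.0209, adjusted p = 0.271). None of the su(Hw) site, the CTCF core and GAGA stood in 221 convergent (90.9%) and 215 divergent windows (82.7%).

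**Figure D4:**
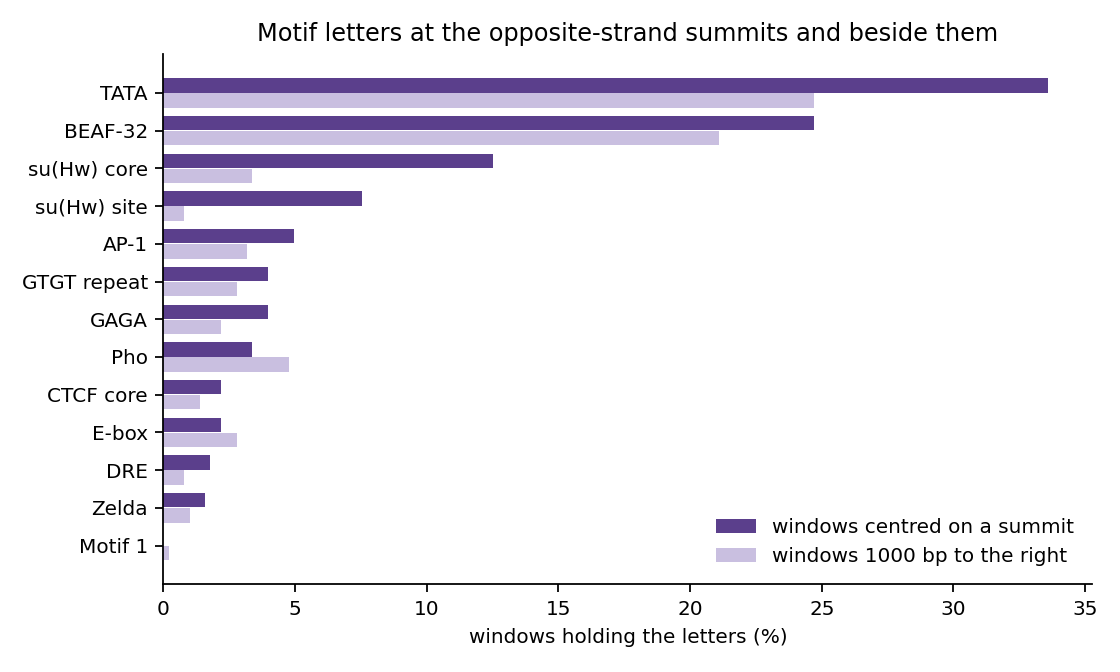
Share of windows holding each of 13 motifs (y axis) in percent (x axis), in the 503 windows centred on opposite-strand summits and in the windows 1000 bp to their right. The su(Hw) site is at 7.55% against 0.795% and the su(Hw) core at 12.5% against 3.38%; BEAF-32, at 24.7% against 21.1%, was not called.

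Members with the su(Hw) site were among the stronger ones. Their median signal was 380 in convergent gaps, against 182 for the other convergent members, and 297 against 182 in divergent gaps. Same-strand summits showed this as well, with a median of 421 with the site against 190 without it. The site stood in 10 of the 50 strongest convergent and 11 of the 50 strongest divergent members, and 34 of the 38 members with it were strong in both replicates. These medians are a description of 1 pooled list and were not tested.

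Noncoding genes stood beside some of the strongest members, since the distance rule covers protein-coding starts only. Within 500 bp of a noncoding start were 34 of 243 convergent members (14%, exact 95% interval 9.89 to 19) and 24 of 260 divergent members (9.23%, interval 6 to 13.4), where 2.84% and 2.35% of the eligible sequence lay, next to 27 of 500 same-strand summits (5.4%). On the convergent side the nearest noncoding gene was annotated as ncRNA in 16 of 34 cases, as tRNA in 14, as snRNA in 3 and as a pseudogene in 1. On the divergent side it was ncRNA in 21 of 24 cases, tRNA in 2 and snoRNA in 1. The 3 snRNA members had signals of 1117.7 beside U5:63BC, 687.4 beside U1:95Ca and 247.5 beside U6:96Ac. The convergent tRNA members ran from 118.3 to 583.7 with a median of 189, and 3 of them lay in the gap of CG8517 and the odorant receptor gene Or56a. A convergent summit with a signal of 123.9 lay 60 bp from the start of lncRNA:roX1, an RNA of the dosage compensation complex. Among divergent members the summit of 1170.7 lay 132 bp from a leucine tRNA gene, and that of 826.2 between CG1888 and Or45b lay 102 bp from lncRNA:CR43651. Without positions within 500 bp of a noncoding start, an alternative added after seeing the data, the ratio of convergent to divergent density was 0.986.

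The genes on either side of these summits were described by their own promoters and by gene lists. Beside a convergent summit were 346 protein-coding genes (2.48% of 13945), beside a divergent one 318 (2.28%) and beside either 632 (4.53%). Of the genes beside a convergent summit 110 (31.8%) also had a peak within 500 bp of a start, as did 96 (30.2%) beside a divergent one and 27.2% beside a same-strand one, where 18.7% of all protein-coding genes had such a peak. In 82 of 173 convergent and 78 of 159 divergent gaps neither neighbour had one, and in 19 and 15 both had.

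The lists of regulatory genes had shares of 18.9% to 27.3% beside these summits, described here without a test. Of the developmental transcription factors 18 of 95 (18.9%) were beside either kind, 10 convergent and 9 divergent, against 4.53% of all genes. They included eya at 960.8, toy, a Pax6 homologue, at 493.8, and salm, the spalt major zinc finger gene, at 475.3. A gene counts as beside a summit when it flanks the gap, at any distance and even where the other neighbour is nearer. Those summits lay 321 bp from eya, 9761 bp from toy and 29552 bp from salm. Their other neighbours CG31637, fuss and sala were nearer, at 130, 1475 and 9541 bp. Of the signalling genes 13 of 59 (22%) were beside either kind. Among them were vn, the EGF receptor ligand vein, at 640.1, fj, the Golgi kinase four-jointed, at 388.2, and ds, the cadherin dachsous, at 332.2. Those summits lay 24201 bp from vn, 33613 bp from fj and 600 bp from ds. The other neighbours CG5568, Ote and Hsp60B were at 1636, 5683 and 12779 bp. Of the ecdysone response genes 9 of 33 (27.3%) were beside either kind, 7 divergent and 2 convergent. They included ImpL2 at 628.1, shd, the ecdysone 20-hydroxylase, at 625.1 and the repressor gene Blimp-1 at 220.0. Those summits lay 3476 bp from ImpL2, 6570 bp from shd and 19058 bp from Blimp-1. The other neighbours Sqor, HGTX and Eaf6 were at 550, 8348 and 3625 bp. The median gap beside a gene was 9.17 kb for the transcription factors, 0.939 kb for the signalling genes, 0.84 kb for the ecdysone genes and 0.473 kb for all genes, and these counts are not corrected for it.

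The other lists were closer to the background of 4.53%. Of the neuronal adhesion, guidance and channel genes 7 of 78 (8.97%) were beside a member, the strongest being the divergent gap of nAChRalpha7, a nicotinic receptor subunit, and kek5, at 391.3. Of the cuticle and chitin genes 4 of 53 (7.55%) were, led by Cht7 at 1117.7 and Cpr97Ea, a cuticle protein gene, at 701.0. Of the muscle genes 2 of 26 (7.69%) were, the flight muscle actin gene Act88F at 493.6 and the Z-disc gene Zasp52 at 284.9. Of the cytoplasmic ribosomal protein genes 3 of 78 (3.85%) were, RpS15Aa at 1138.4, RpS3A at 275.0 and RpS23 at 219.5. RpL37-1, which no list symbol matched without ambiguity, was beside a convergent summit at 281.7 and is not in that count. Of the genes of insulator and architectural proteins 1 of 30 (3.33%) was, jigr1 at 171.6. The divergent gap between the Hox gene Scr and the pair-rule gene ftz, in a stretch known for boundary elements, held 0 summits that met the rule.

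Both kinds of summit were found on most arms. On the large arms, convergent density ran from 24.4 per Mb on 2L to 39.1 on X, and divergent density from 19.7 on X to 46.7 on 3L. Chromosome 4 held 6 divergent members in 0.0307 Mb of eligible sequence (195 per Mb) and 0 convergent members in 0.0211 Mb. X was the densest of the large arms for convergent gaps and the sparsest for divergent ones, a difference that was not tested.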

How the data were processed

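The files hold peaks of 2 replicates of 1 group. The authors deposited peak lists on the dm6 assembly (an older assembly was not used here), with the peak caller, its settings and the control not stated in the labels. The pooled optimal list and the replicate lists give each peak an enrichment signal, deposited by the authors without read counts, so depth is unknown. The deposited summit offset, in bp from the peak start, gave each summit. Sonicated fragments were 200 to 800 bp, per the labels, and 78.6% of peaks have 1 fixed width.

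Genes came from Ensembl release 115 (BDGP6, the same assembly, with transposons listed as genes) and sequence from RefSeq. A replicate's own list was its 6294 strongest of 29999 peaks. Densities were compared by an exact conditional test, shares by Fisher's exact test, positions by the exact binomial test and motifs in paired windows by the exact McNemar test, all two-sided, with Benjamini-Hochberg adjustment within each family at 0.05. The p-values measure the counting of summits in 1 list, not the spread between animals. The search was tested on simulated data. The members, the 8 gene lists and the tests were chosen with earlier results of these data known. Genes were named as the strongest 3 per list and the strongest members of each kind; others were chosen after their values were seen. Versions were pandas 2.3.3, SciPy 1.17.1, NumPy 2.4.6 and Python 3.11.15.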

Additional observations from a re-analysis of the deposited data

How the results depend on the processing

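Of 136 values under alternatives, 110 kept both direction and side of the threshold; the alternatives were each replicate's own list, the stronger 0.5 of the list, other distances and windows, 1 summit per gap, long gaps, another count of genes and matched distances. The ratio of convergent to divergent density turned to 0.727 in gaps of at least 10 kb, to 0.636 over 500 bp and to 0.702 over 1000 bp from both neighbours, and the divergent to same-strand ratio passed the threshold in the same settings at 1.49, 1.44 and 1.5. The convergent to same-strand ratio passed it at 1.29 over 1000 bp from a start. In that setting the convergent to divergent ratio was 1.23 and did not pass it. A further 16 values near 1 changed sides of 1 without passing the threshold in either setting. The convergent to divergent density ratio was 0.966 to 1.07 in the replicate lists, 0.992 without transposons as genes and 0.986 without noncoding starts. The divergent to same-strand ratio was 0.875 with 1 summit per gap, and the convergent to same-strand ratio 0.913 over 500 bp from both neighbours. For a signal above the arm median, the convergent to divergent odds ratio was 1.08 to 1.1 in the replicate lists, 1.3 in the stronger 0.5 of the list, 1.13 over 1000 bp from a start and 1.19 at the upper quartile, and the opposite-strand to same-strand one 1.19 with 1 summit per gap. For strength in both replicates, the convergent to divergent odds ratio was 0.822 with 1 summit per gap. The opposite-strand to same-strand one was 1.35 in the stronger 0.5 of the list and 1.11 with 1 summit per gap. For strength in 1 replicate alone, counted on the same members, the convergent to divergent odds ratio was 0.957 in replicate 3 and 1.13 in replicate 4. The opposite-strand to same-strand one was 1.04 in replicate 3 and 0.906 in replicate 4. By construction the matched settings leave out the sequence next to 3′ ends; the cause of the other changes was not tested. TATA lost its call in 3 settings, at ratios of 1.24, 1.3 and 1.4, and GAGA gained one in the list of replicate 4 alone, at 4.75. The matched distances, the positions in long gaps, the noncoding starts, the side windows outside genes and the count without transposons were chosen after seeing the data. No paired analysis was possible because there is 1 group. Read depth is unknown, which limits what can be said of single peaks.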
